A study of Mus musculus with 9 samples.

Results

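The IL-6 family genes measured here were the cytokine genes Il6, Il11, Lif and Clcf1, the receptor genes Il6ra, Il6st, Il11ra1, Lifr and Osmr, and the inhibitor gene Socs3. They were taken by symbol from the probe sets of the deposited table, keeping for each gene the probe set with the highest mean, which gave values for 9 of these 10 genes out of 19505 named genes. Il11ra1 had no named probe set and has no value here. The data are Clariom S mouse arrays of 4 lentivirally transduced, puromycin-selected and GFP-tagged lines of Pan02, a mouse pancreatic adenocarcinoma cell line. Pan02OE cells carry an Nlrx1 open reading frame and Pan02OE-CTL cells its control construct, while Pan02KD cells carry an shRNA against Nlrx1 and Pan02KD-CTL cells a control shRNA. Each line was grown in medium with a low dose of H2O2 for 24 hours or in normal medium, with 1 array for each line and medium, 8 arrays in all. Each line is a single transduced population and Pan02KD rests on a single shRNA sequence, so that p-values measure the spread between arrays of a line, not between transductions.

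Cytokines of the IL-6 family signal through receptor complexes that share gp130, the product of Il6st. Binding brings gp130 together with a ligand-specific chain, the JAK kinases attached to these chains are activated, and they phosphorylate STAT3, which enters the nucleus and induces genes that include Socs3, whose product then blocks the receptor complex. In pancreatic cancer IL-6 and LIF are best known as cytokines of the stroma and of the tumor cells that act on tumor growth through STAT3.

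The promoters of Il6 and Il11, the cytokine genes with the widest range between lines, of Socs3, the feedback gene of the pathway, and of Jak2, the kinase gene whose profile is nearest to that of Il6 in these arrays, are shown as the 250 bases before the transcription start (RefSeq, build GRCm38.p6, written 5′ to 3′ on the strand of the gene). Capitals mark matches on either strand to the letters of a STAT site (TTCNNNGAA), an AP-1 site (TGANTCA), a kappaB site (GGNNNTTCC) or a CRE (TGACGTCA).
Il6 chr5:30012864-30013113 (+ strand): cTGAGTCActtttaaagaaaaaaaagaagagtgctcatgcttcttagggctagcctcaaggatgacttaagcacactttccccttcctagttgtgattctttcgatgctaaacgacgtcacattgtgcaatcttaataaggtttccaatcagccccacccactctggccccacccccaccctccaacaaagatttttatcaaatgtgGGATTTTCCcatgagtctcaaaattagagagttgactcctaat
Il11 chr7:4778142-4778391 (- strand): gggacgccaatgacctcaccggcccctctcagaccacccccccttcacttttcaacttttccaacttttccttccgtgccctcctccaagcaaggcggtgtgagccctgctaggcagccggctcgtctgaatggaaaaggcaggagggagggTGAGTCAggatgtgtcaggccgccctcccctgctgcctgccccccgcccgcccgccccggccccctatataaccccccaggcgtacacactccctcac
Socs3 chr11:117969367-117969616 (- strand): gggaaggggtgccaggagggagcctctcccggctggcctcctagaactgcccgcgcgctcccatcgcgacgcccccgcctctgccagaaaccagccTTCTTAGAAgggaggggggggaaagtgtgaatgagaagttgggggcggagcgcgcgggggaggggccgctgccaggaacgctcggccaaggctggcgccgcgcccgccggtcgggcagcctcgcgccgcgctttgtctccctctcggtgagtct
Jak2 chr19:29251553-29251802 (+ strand): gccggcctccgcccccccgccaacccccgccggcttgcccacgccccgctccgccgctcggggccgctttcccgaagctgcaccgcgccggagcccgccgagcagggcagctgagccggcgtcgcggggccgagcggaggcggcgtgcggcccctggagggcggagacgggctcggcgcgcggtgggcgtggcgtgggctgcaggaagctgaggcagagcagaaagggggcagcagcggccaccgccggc
The Il6 stretch held TGAGTCA, an AP-1 match that began 249 bases before the start, and GGATTTTCC, a kappaB match that began 43 bases before it. The second of the Il11 start sites had TGAGTCA 98 bases before the start, and the first had no match. Socs3 had the STAT match TTCTTAGAA 154 bases before the start and Lif the AP-1 match TGACTCA 228 bases before it. No letters of these motifs were found in the same window of Jak2, Il6ra, Il6st, Il11ra1, Lifr or Osmr, and Clcf1 is not among the 9 of 10 genes matched to the promoter table. Of all 32851 promoter stretches of the same length, 7.02% held the STAT letters, 6.75% the AP-1 letters, 15.7% the kappaB letters and 1.55% the CRE letters. A match describes the letters and not a bound site.

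The values are log2 signals as deposited, and a line mean was read as above background when it exceeded 7.48. The arrays carry 23 background probe sets, and this was the brightest. Where the lower line mean of a called difference did not exceed it, the size against that value is given as a bound. By this limit 7 of the 9 measured genes were above background in at least 1 line, against 8787 of all 19505 genes. Nlrx1 itself read 17.31 in H2O2 and 17.10 in normal medium in Pan02OE, against 6.90 and 6.89 in Pan02OE-CTL. It read 6.56 and 6.68 on the arrays labelled Pan02KD, against 6.40 and 5.96 in Pan02KD-CTL. It was 10.31 higher in Pan02OE (at least 9.73 against the background limit, SE 0.17, adjusted p = 7.5e-09, limma with Benjamini-Hochberg adjustment over all genes, 2 arrays per line), but on the arrays labelled Pan02KD it was not lower than in their control (difference 0.44, SE 0.17, adjusted p = 0.146). Neither line mean of that pair was above background, so that the probe set could show neither a loss nor its absence. The paper checked the knockdown by western blot, a measure of protein. Every direction given below for the arrays labelled Pan02KD is therefore that of the label and not of a measured loss of Nlrx1 RNA. Of 7 ductal epithelial marker genes 6 were above background and Epcam was not. Of fibroblast markers 2 of 5 measured were, 0 of 4 leukocyte and 0 of 4 endothelial markers. The summed linear signal of the fibroblast list was 332 in Pan02OE, 414 in Pan02OE-CTL, 1920 on the arrays labelled Pan02KD and 1012 in Pan02KD-CTL. Its members above background were opposed there, with Dcn at 10.47 on the arrays labelled Pan02KD and 4.94 in Pan02KD-CTL, and Pdgfrb at 8.23 and 9.59. The summed signal of the epithelial list was 252271 in Pan02OE, 121827 in Pan02OE-CTL, 79006 on the arrays labelled Pan02KD and 151689 in Pan02KD-CTL. Within each pair this sum differed in the opposite sense to Il6, but not every member followed the sum. On the arrays labelled Pan02KD, Krt7, Krt8, Krt18, Krt19 and Sox9 were lower than in Pan02KD-CTL, while Cdh1 was higher (10.57 against 8.20). The part of either list in the results below was not tested.

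Il6 encodes the cytokine that binds the IL-6 receptor chain and gp130, and its 4 lines did not overlap. It read 7.44 in H2O2 and 7.59 in normal medium in Pan02OE, against 11.12 and 10.92 in Pan02OE-CTL. On the arrays labelled Pan02KD it read 9.31 in H2O2 and 9.41 in normal medium, against 5.81 and 6.49 in Pan02KD-CTL. The 2 arrays of a line lay closer to each other than to those of any other line. Il6 was lower in Pan02OE than in Pan02OE-CTL by 11.4-fold (log2 difference -3.51, SE 0.21, adjusted p = 8.73e-06, limma with Benjamini-Hochberg adjustment). The Pan02OE mean (7.51) lay close to the background limit, with the H2O2 array under it. Il6 was higher on the arrays labelled Pan02KD than in Pan02KD-CTL (3.21, SE 0.21, adjusted p = 2.07e-05, limma). The control was not above background there, so that the difference was at least 3.67-fold. The sign was the same in each medium, with -3.69 in H2O2 and -3.33 in normal medium for Pan02OE over Pan02OE-CTL, and 3.50 in H2O2 and 2.92 in normal medium for the arrays labelled Pan02KD over Pan02KD-CTL.

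By line means the control lines lay further apart in Il6 than either modified line lay from its control. Counted to the background limit they differed by 11.7-fold, close to the 11.4-fold of Pan02OE over Pan02OE-CTL, so that the ranking against the Pan02OE difference is not settled. Pan02KD-CTL was lower than Pan02OE-CTL (6.15 and 11.02, log2 difference -4.88, SE 0.21, adjusted p = 7.66e-07, limma), a difference of at least 11.7-fold. In order of level the lines stood as Pan02OE-CTL, Pan02KD, Pan02OE and Pan02KD-CTL, and each step passed the test, with 1.67 from the first to the second (adjusted p = 0.00132), 1.84 to the third (adjusted p = 0.000332) and 1.37 to the last (adjusted p = 0.0058, limma for each). The last step lies at the background limit, with Pan02KD-CTL under it, the H2O2 array of Pan02OE (7.44) under it as well and a bound of 1.02-fold. No other family member had all 3 steps past the threshold, and the share of all genes with all 3 past it was not counted. The comparison of the control lines shares its arrays with both comparisons above, which share only the estimate of the spread with each other. The difference of the Pan02OE and Pan02KD effects on Il6 was -6.72 (SE 0.29, adjusted p = 7.48e-07, limma), or -5.39 with the Pan02KD effect at its bound. In all of these Il6 kept its direction and its call under every alternative run and without any 1 array, except that the step between Pan02OE and Pan02KD-CTL was lost without the H2O2 array of Pan02OE (adjusted p = 0.0562).

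**Figure D1:**
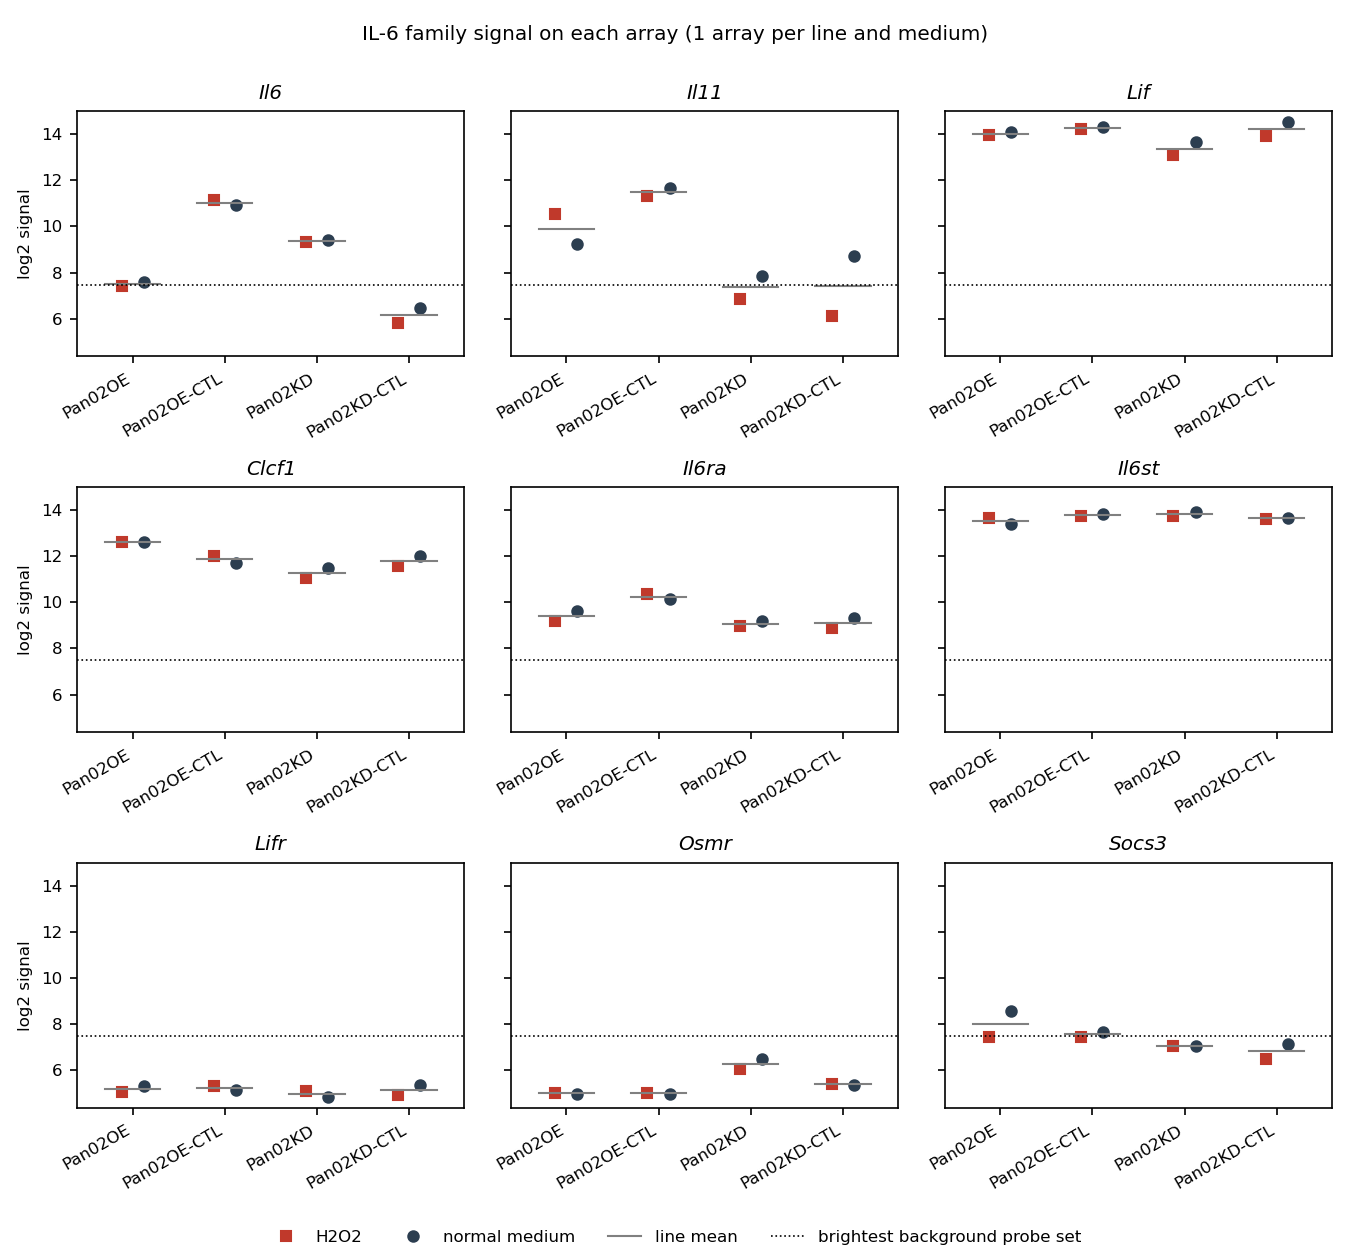
Log2 signal of the 9 measured IL-6 family genes on each of the 8 arrays, with squares for H2O2, circles for normal medium, a bar for the mean of a line and a dotted line at the brightest background probe set (7.48). Il6 separates the 4 lines, Il6st lies between 13.40 and 13.88 on every array, and Lifr and Osmr stay under the dotted line.

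Il11 encodes a cytokine that uses its own alpha chain with gp130. It read 10.54 in H2O2 and 9.24 in normal medium in Pan02OE, against 11.30 and 11.67 in Pan02OE-CTL. It read 6.88 and 7.86 on the arrays labelled Pan02KD, against 6.11 and 8.73 in Pan02KD-CTL. Pan02OE lay below Pan02OE-CTL on both arrays, but its own arrays were 1.30 apart, and the difference did not pass the test (-1.59, SE 0.67, adjusted p = 0.156, limma). Without the H2O2 array of Pan02OE the difference was -2.90 (adjusted p = 0.0111), and without its normal-medium array -0.28 (adjusted p = 0.84). It also passed without either array of Pan02KD-CTL (-1.59, adjusted p = 0.0439 for each), which enters the fit through the spread alone. The arrays labelled Pan02KD lay inside the range of Pan02KD-CTL (difference -0.05, SE 0.67, adjusted p = 0.977, limma, with neither line mean above background). Without the normal-medium array of Pan02KD-CTL this difference was 1.25 and without the H2O2 array -1.35, neither called. Between the control lines Il11 was lower in Pan02KD-CTL than in Pan02OE-CTL (-4.06, SE 0.67, adjusted p = 0.00286, limma). The Pan02KD-CTL mean (7.42) was not above background, so that the bound of this difference is 4.00. It was -5.19 in H2O2, where Pan02KD-CTL was not above background, and -2.94 in normal medium, where it was. The difference lay between -5.36 and -2.76 without 1 array, and the call was lost with a trended and robust variance (adjusted p = 0.0613). Il11 was also called for Pan02KD over Pan02OE-CTL (lower, bound 4.00, adjusted p = 0.00582) and for Pan02OE over Pan02KD (higher, bound 2.41, adjusted p = 0.0284, limma).

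Lif, which encodes leukemia inhibitory factor, was well above background on every array. It read 13.94 in H2O2 and 14.09 in normal medium in Pan02OE, against 14.22 and 14.30 in Pan02OE-CTL, a difference of -0.24 that did not pass the test (SE 0.18, adjusted p = 0.452, limma). It read 13.08 and 13.64 on the arrays labelled Pan02KD, against 13.91 and 14.50 in Pan02KD-CTL. Both of those arrays lay under both control arrays, and Lif was 1.80-fold lower (-0.85, SE 0.18, adjusted p = 0.0136, limma). This call was lost without the H2O2 array labelled Pan02KD (adjusted p = 0.157) or the normal-medium array of Pan02KD-CTL (adjusted p = 0.0835).

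Clcf1 encodes cardiotrophin-like cytokine factor, a ligand of the CNTF receptor complex. It read 12.60 on both arrays of Pan02OE, against 12.01 in H2O2 and 11.71 in normal medium in Pan02OE-CTL. Its values were 11.05 and 11.47 on the arrays labelled Pan02KD, against 11.57 and 12.01 in Pan02KD-CTL. Clcf1 was 1.67-fold higher in Pan02OE (0.74, SE 0.20, adjusted p = 0.0357, limma), and on the arrays labelled Pan02KD the difference did not pass the test (-0.53, SE 0.20, adjusted p = 0.134, limma). The effects differed from each other by 1.27 (SE 0.29, adjusted p = 0.0113, limma), and this was lost without the normal-medium array of Pan02OE-CTL (adjusted p = 0.054) or the H2O2 array labelled Pan02KD (adjusted p = 0.0648). The Pan02OE call was lost without the normal-medium array of Pan02OE-CTL (0.45, adjusted p = 0.321) or without either Pan02OE array (adjusted p 0.102 and 0.203).

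**Figure D2:**
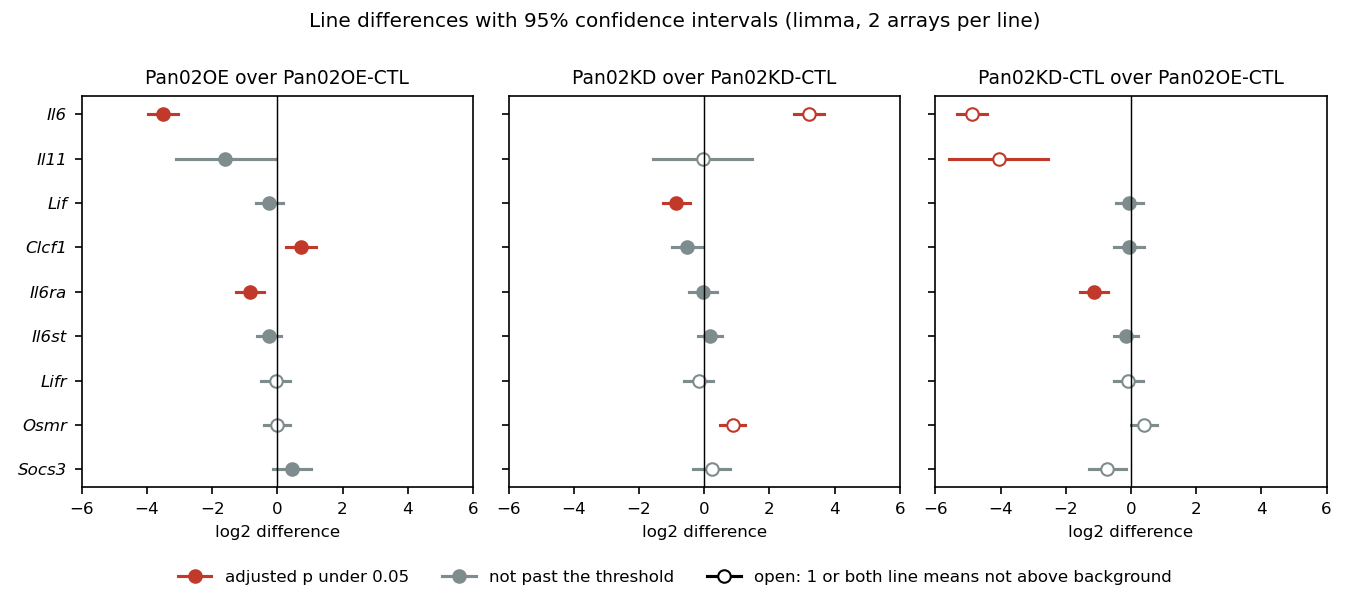
Log2 difference between lines with its 95% confidence interval for each measured gene, in red where the adjusted p was under 0.05 (limma) and with an open point where 1 or both line means were not above background. Il6 lies at -3.51 for Pan02OE over Pan02OE-CTL, at 3.21 for Pan02KD over Pan02KD-CTL and at -4.88 between the control lines.

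Il6ra, the gene of the ligand-binding IL-6 receptor chain, read 9.19 in H2O2 and 9.61 in normal medium in Pan02OE, against 10.35 and 10.13 in Pan02OE-CTL. Its values were 8.96 and 9.18 on the arrays labelled Pan02KD, against 8.90 and 9.32 in Pan02KD-CTL. It was 1.79-fold lower in Pan02OE (-0.84, SE 0.19, adjusted p = 0.0144, limma), a call that was lost without the H2O2 array of Pan02OE (adjusted p = 0.132) or of Pan02OE-CTL (adjusted p = 0.159). On the arrays labelled Pan02KD, which overlapped their control, the difference was -0.04 (95% interval -0.47 to 0.38, adjusted p = 0.925, limma). The control lines differed here as well, with Pan02KD-CTL lower than Pan02OE-CTL (-1.13, SE 0.19, adjusted p = 0.00309, limma). Whether the Pan02OE and Pan02KD effects on Il6ra differ did not pass the test (-0.80, SE 0.27, adjusted p = 0.0619, limma), and under the alternatives it lay on either side of the threshold (adjusted p 0.0247 to 0.253).

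Il6st, the gene of the shared chain gp130, was the steadiest member above background. It read between 13.40 and 13.88 over the 8 arrays, and its line means spanned 1.21-fold. The difference was -0.25 in Pan02OE over Pan02OE-CTL (95% interval -0.62 to 0.12) and 0.18 on the arrays labelled Pan02KD over Pan02KD-CTL (95% interval -0.19 to 0.54), and no neighbors in the order of its line means differed by limma.

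Lifr, whose product pairs with gp130 to bind LIF, read between 4.86 and 5.36 and was not above background on any array, and no difference is given for it. Osmr, the gene of the oncostatin M receptor chain, was also not above background on any array. It read 6.05 in H2O2 and 6.49 in normal medium on the arrays labelled Pan02KD, against 5.43 and 5.37 in Pan02KD-CTL, 5.02 and 4.99 in Pan02OE, and 5.04 and 4.98 in Pan02OE-CTL. The arrays labelled Pan02KD thus lay over all others, and Osmr passed the test against Pan02KD-CTL (adjusted p = 0.0108, limma), but since neither line rose above background no fold is given. The call was lost without the normal-medium array of either line (adjusted p 0.127 and 0.0616).

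Socs3, whose product inhibits the receptor-bound kinases, had line means between 6.84 and 8.01, near the background limit. It read 7.43 in H2O2 and 8.59 in normal medium in Pan02OE, against 7.46 and 7.66 in Pan02OE-CTL. It read 7.07 in both media on the arrays labelled Pan02KD, against 6.51 and 7.17 in Pan02KD-CTL. The normal-medium array of Pan02OE stood over the other 7, and the difference between Pan02OE and Pan02OE-CTL did not pass the test (0.45, SE 0.25, adjusted p = 0.302, limma). No step in the order of its line means passed, although Pan02OE and Pan02KD-CTL at the ends of that order differed (8.01 and 6.84, at least 1.44-fold, adjusted p = 0.028, limma). Pan02OE was also called higher than the arrays labelled Pan02KD (8.01 and 7.07, at least 1.44-fold, adjusted p = 0.0302, limma). Between the control lines Socs3 was not called (-0.72, SE 0.25, adjusted p = 0.089, limma).

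Counted over the family, 3 of 9 genes passed the test in Pan02OE over Pan02OE-CTL, Clcf1 higher and Il6 and Il6ra lower, where 16.5% of all genes did. On the arrays labelled Pan02KD over Pan02KD-CTL 3 of 9 passed, Il6 and Osmr higher and Lif lower, against 13.6% of all genes. The Osmr and Lif calls did not hold without the normal-medium array of Pan02KD-CTL. Il6 was the member called both on the arrays labelled Pan02KD over Pan02KD-CTL and in Pan02OE over Pan02OE-CTL, and its directions were opposite. How many of all genes were called in both was not counted. Jak2, Pias3, Rhbdf1, Twist1 and Cebpb, described below, were also called in both with opposite directions. Between the control lines 3 of 9 passed, with Il6, Il11 and Il6ra all lower in Pan02KD-CTL, against 16.9% of all genes. The contrast of the Pan02OE and Pan02KD effects was called for 3 of 9, against 22.3% of all genes. For the orders of levels, 3 of 9 were called between Pan02OE and Pan02KD-CTL (6.37% of all genes), 5 of 9 between Pan02KD and Pan02OE-CTL (7.63%) and 6 of 9 between Pan02OE and Pan02KD (18.3%). The median difference of the 9 genes was -0.24 in Pan02OE and -0.04 on the arrays labelled Pan02KD, against 0.04 and -0.0032 over all genes. Genes above background were called more often, 42.2% of 8787 in Pan02OE over Pan02OE-CTL, 36.6% on the arrays labelled Pan02KD over Pan02KD-CTL and 42.5% between the control lines, where 3, 2 and 4 of the 7 members above background were called in that smaller set. This limit keeps genes that are high in any line.

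None of the 9 genes was called for H2O2 over normal medium across the 4 lines, as for 0.0% of all genes (limma with Benjamini-Hochberg adjustment, 4 arrays per medium, smallest adjusted p of a member 0.743). A trended and robust variance also called 0 of the 9, and 0.0103% of all genes. At an unadjusted p under 0.05 there were 2 members, Lif (-0.35) and Socs3 (-0.50), and 1231 of all genes. The median fitted difference of the 9 genes was -0.18, against -0.0004 over all genes. In H2O2 6 of the 9 were lower in Pan02OE, 4 in Pan02OE-CTL, 7 on the arrays labelled Pan02KD and 8 in Pan02KD-CTL. These counts include differences of any size, and Lifr and Osmr, which were not above background on any array. The share of all genes lower in H2O2 was not counted, so that the counts show no response of the family. Within a line there is 1 array per medium and no test. In Pan02OE 2 members differed by at least 2-fold between the media, Il11 higher in H2O2 (1.30) and Socs3 lower (-1.16), where 0.231% of all genes did. In Pan02KD-CTL Il11 was lower in H2O2 (-2.61), where 1.39% of all genes differed by 2-fold. No member did so in Pan02OE-CTL (0.169% of all genes) or on the arrays labelled Pan02KD (0.256%), where Il11 differed by -0.98. Il11 thus moved up in 1 line and down in the other 3. Its H2O2 value was not above background in Pan02KD-CTL (6.11) or on the array labelled Pan02KD (6.88). The same held for Socs3 in Pan02OE (7.43), so that the sizes of these drops reach under the background limit. Il6 differed between the media by -0.15 in Pan02OE, 0.20 in Pan02OE-CTL, -0.10 on the arrays labelled Pan02KD and -0.68 in Pan02KD-CTL, less in each than between any neighboring lines.

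**Figure D3:**
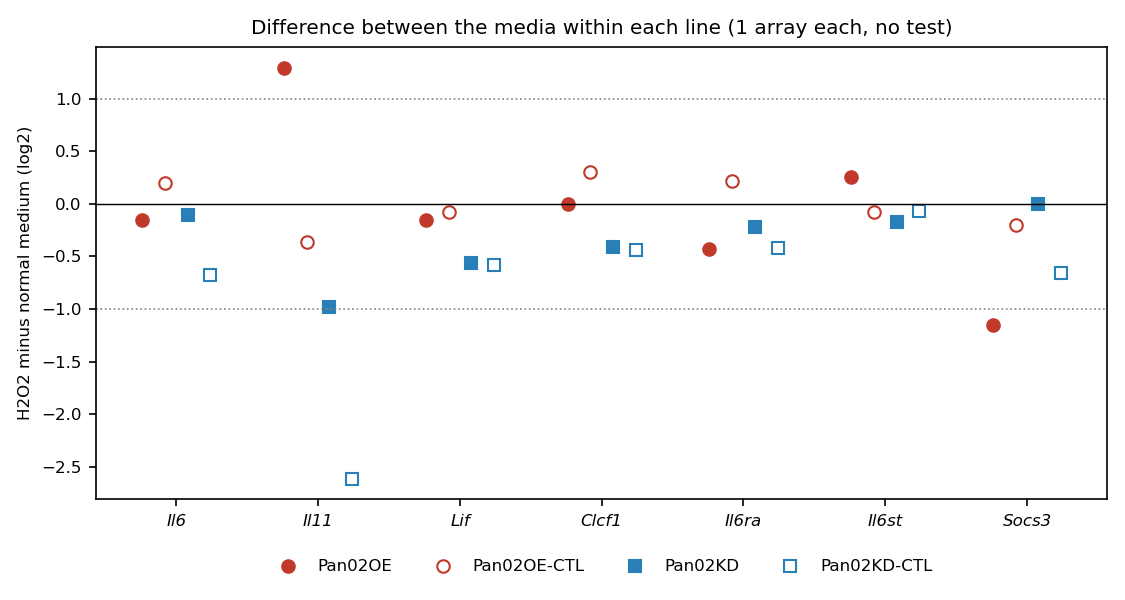
H2O2 minus normal medium on the log2 scale within each line, 1 array each, for the 7 genes above background in at least 1 line, with dotted lines at 2-fold. Il11 lies at 1.30 in Pan02OE and at -2.61 in Pan02KD-CTL, and Il6 lies within 0.68 of 0 in every line.

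Of the genes that couple gp130 to the nucleus, Jak2 moved with Il6. Jak2 encodes a kinase that is bound to gp130. It read 12.78 in H2O2 and 12.98 in normal medium in Pan02OE, against 15.40 and 15.19 in Pan02OE-CTL. Its values were 14.07 and 14.09 on the arrays labelled Pan02KD, against 11.57 and 12.07 in Pan02KD-CTL. The arrays of the 4 lines did not overlap, and they stood in the same order as for Il6. Jak2 was lower in Pan02OE (-2.42, SE 0.19, adjusted p = 4.3e-05, limma) and higher on the arrays labelled Pan02KD (2.26, SE 0.19, adjusted p = 0.000107, limma), and it was lower in Pan02KD-CTL than in Pan02OE-CTL (-3.48, SE 0.19, adjusted p = 3.8e-06, limma). Over the 8 arrays it had the highest Pearson r with Il6 (0.999) of 2377 genes ranked, which were those with a line mean above background and line means spanning at least 1, followed by Slc25a48, a mitochondrial carrier gene (0.996), and Fmnl2, a formin gene (0.993). These arrays fall into 4 lines with 2 arrays each, so that such an r describes little more than the order and spacing of 4 levels.

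**Figure D4:**
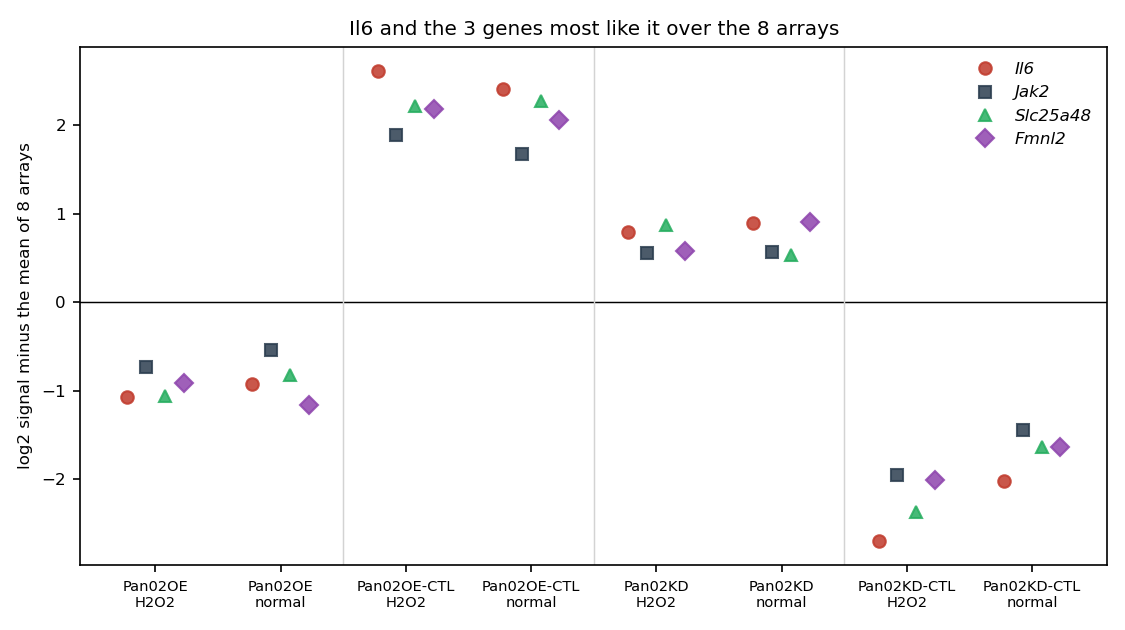
Log2 signal minus the mean of the 8 arrays for Il6, Jak2, Slc25a48 and Fmnl2, by line and medium. All 4 genes are highest in Pan02OE-CTL, then on the arrays labelled Pan02KD, then in Pan02OE, and lowest in Pan02KD-CTL.

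The other members followed other genes. By the same measure Il11 was most like Adss (0.973), Elk3 (0.971) and Stk40 (0.963), and Il6ra most like Sh2b3, which encodes an adaptor that restrains JAK2 signaling (0.962), Fam135a (0.960) and Tpst2 (0.959). Clcf1 was most like Spry2, a feedback inhibitor of receptor tyrosine kinase signaling (0.990), Piezo1 (0.983) and Sbno2 (0.980). Socs3 was most like Tubb2a (0.912), Prag1 (0.876) and Apcdd1 (0.874). No gene was listed for more than 1 member.

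Of the other cytokines and receptor chains of the family, among them Osm, Cntf, Il27 and Cntfr, 9 of 12 were measured, and 1, the cardiotrophin gene Ctf1, was above background (8.31 to 9.03 over the arrays). None of the 9 was called in any of these comparisons. Of 13 transducers 12 were measured and all 12 were above background. In Pan02OE 1 rose and 2 fell over Pan02OE-CTL, where 16.5% of all genes and 42.2% of those above background were called, namely the adaptor gene Grb2 (0.84, SE 0.21, adjusted p = 0.0219), Jak2, and the exchange factor gene Sos1 (-0.69, SE 0.19, adjusted p = 0.0359, limma). Jak2 alone of the 12 was called on the arrays labelled Pan02KD over Pan02KD-CTL. There 13.6% of all genes and 36.6% of those above background were called. Stat3, the central transcription factor of the pathway, was called between the control lines, lower in Pan02KD-CTL than in Pan02OE-CTL (-0.76, SE 0.17, adjusted p = 0.0126, limma). The median difference of the transducers was -0.21 in Pan02OE and 0.30 on the arrays labelled Pan02KD.

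Of 15 feedback and shedding genes 1 rose and 2 fell in Pan02OE over Pan02OE-CTL, and 2 rose and 1 fell on the arrays labelled Pan02KD over Pan02KD-CTL, where 16.5% and 13.6% of all genes were called. Pias3, an inhibitor of STAT3, was lower in Pan02OE (6.95 and 8.15, -1.20, SE 0.17, adjusted p = 0.00141) and higher on the arrays labelled Pan02KD (8.41 and 6.89, 1.52, SE 0.17, adjusted p = 0.000574, limma), in each case with the lower line not above background, so that the bounds are 0.67 and 0.93. Rhbdf1, a regulator of the sheddase ADAM17 that releases the IL-6 receptor from the cell surface, was lower in Pan02OE (-0.98, SE 0.21, adjusted p = 0.0123) and higher on the arrays labelled Pan02KD (0.82, SE 0.21, adjusted p = 0.0335, limma). Its paralog Rhbdf2 was higher in Pan02OE (0.53, SE 0.16, adjusted p = 0.049, limma), and Socs2, another member of the SOCS family, was lower on the arrays labelled Pan02KD (-0.69, SE 0.17, adjusted p = 0.0276, limma). The list's median was 0.07 in Pan02OE and 0.02 on the arrays labelled Pan02KD.

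Of 24 genes known to respond to STAT3, 23 were measured and 19 were above background in at least 1 line. In Pan02OE 4 rose and 1 fell over Pan02OE-CTL, where 16.5% of all genes were called. Lcn2, the gene of the siderophore-binding lipocalin, rose (4.14, SE 0.30, adjusted p = 2.72e-05), as did the acute phase gene Saa3 (1.29, SE 0.21, adjusted p = 0.00273, with Pan02OE-CTL not above background and a bound of 0.71), while the transcription factor gene Twist1 fell (-2.48, SE 0.17, adjusted p = 1.72e-05, limma for each). For Lcn2 and Saa3 Pan02OE-CTL stood apart from all other lines, with Lcn2 at 15.59 in Pan02OE, 15.50 on the arrays labelled Pan02KD and 15.82 in Pan02KD-CTL, against 11.45 in Pan02OE-CTL, and Saa3 at 8.19, 8.15 and 8.05 in the same lines, against 6.90. The other called genes were Cebpb (1.01, adjusted p = 0.0175) and the adhesion gene Icam1, which was not above background in either line. On the arrays labelled Pan02KD 3 rose and 3 fell over Pan02KD-CTL, where 13.6% of all genes were called. Twist1 rose (1.57, SE 0.17, adjusted p = 0.000418), and the kinase genes Pim1 (-1.45, SE 0.21, adjusted p = 0.00203) and Pim3 (-0.99, SE 0.16, adjusted p = 0.00346, limma) fell. Timp1 (0.73) and Il4ra (0.68) also rose there and Cebpb fell (-0.97, adjusted p = 0.025, limma). The list's median was 0.14 in Pan02OE and -0.17 on the arrays labelled Pan02KD, against 0.04 and -0.0032 over all genes. Thus among the genes called in both comparisons of this list, Twist1 moved in the direction of Il6 and Cebpb in the other.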

How the data were processed

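RNA of the 8 Pan02 cultures was hybridized to Clariom S mouse arrays, 1 array each. The deposited values are log2 signals per probe set, made by the authors with the Transcriptome Analysis Console. Its version, the summarization and the normalization are not given in the sources used here. A column of a manufacturer's control RNA held 0 values and was left out. Of 22206 gene probe sets 19572 have 1 symbol and 2634 none, which leaves 19505 genes, and array medians lie between 6.51 and 6.58, so that no further scaling was applied. Depth does not apply to arrays, and their number limits the precision.

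Lines and media were fitted as additive terms over the 8 arrays by limma 3.58.1 under R 4.3.3, using empirical Bayes moderation (3 residual and 6.17 prior degrees of freedom). P-values were adjusted by Benjamini-Hochberg over all 19505 genes of a comparison, with a threshold of 0.05. The fit was tested on simulated data. The 2 arrays of a line differ in medium, and no line has a second array in the same medium. The residual spread therefore also holds any difference between lines in their response to H2O2. The family members and lists were chosen with earlier results of these data known, and the lists were written from general knowledge. Named besides the members are up to 3 called genes of each list and comparison with the largest difference, and the 3 genes most like each member whose line means span at least 1 on the log2 scale and reach above background. Stat3, Cebpb, Icam1, Timp1, Il4ra and Ctf1 were named after their values were seen. Alternatives were centering on array medians, cyclic loess, limits on low signal, all probe sets, another variance prior, no medium term, and leaving out each array.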

Additional observations from a re-analysis of the deposited data

Results flagged for a closer look

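The effects of the 2 modified lines, each over its own control, differed by limma in 3 members: Il6 (-6.72), Clcf1 (1.27) and Osmr (-0.88, with no array above background). Il6 fell in Pan02OE and rose on the arrays labelled Pan02KD, where Nlrx1 was not above background and a loss of it could not be seen. For Clcf1 the Pan02KD difference alone was not called, and for Osmr the Pan02OE difference alone was not called.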

How the results depend on the processing

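Of 12 called differences of single members, 158 of 176 alternatives kept direction and call, 18 lost the call and 0 changed sign. Of 24 differences that were not called, 14 of 353 alternatives were called and 16 changed sign, and the causes were not tested. Of the latter, Il6st for H2O2 over normal medium was 9.76e-05 with cyclic loess. The rest came from leaving out 1 array, which gave -0.11 to 0.0364 for Il6st under H2O2, -1.35 to 1.25 for Il11 and -0.18 to 0.10 for Il6ra on the arrays labelled Pan02KD over Pan02KD-CTL, -0.23 to 0.13 for Lif and -0.36 to 0.23 for Clcf1 in Pan02KD-CTL over Pan02OE-CTL, and -0.22 to 0.66 for Socs3 in the difference of the Pan02OE and Pan02KD effects. Leaving out 1 array lowered the number of members called, in some fits, for Pan02KD over Pan02KD-CTL and over Pan02OE-CTL. The same held for Pan02OE over Pan02OE-CTL, over Pan02KD-CTL and over Pan02KD, and for the difference of the Pan02OE and Pan02KD effects. The share of all genes called moved in these fits as well. Where a line is left with 1 array, it is assumed to vary like the others. With a trended and robust variance 5 members were called for the difference of the effects, against 3, where 25.5% of all genes were, against 22.3%. The Osmr difference of the effects lost its call without any of 6 arrays (adjusted p 0.0624 to 0.15). Without the medium term, as with it, 3 members were called for Pan02OE over Pan02OE-CTL (16.5% of all genes). For Pan02KD over Pan02KD-CTL 3 were called as well (13.4% of all genes). For Pan02OE over Pan02KD 4 rather than 6 were called (18.2% of all genes, against 18.3%). For Pan02OE over Pan02KD-CTL 2 rather than 3 were called (6.20% of all genes, against 6.37%). Signals near the brightest background probe set limit Il6 in Pan02KD-CTL and Pan02OE, Il11 in both Pan02KD lines, Osmr, Lifr and Socs3.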
